A study of Arabidopsis thaliana with 18 samples.

Results

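Poly(ADP-ribosyl)ation was followed here through the 5 Arabidopsis thaliana genes for the enzymes that build and remove poly(ADP-ribose). The 5 genes were chosen by their identifiers: the polymerase genes PARP1 (AT2G31320), PARP2 (AT4G02390) and PARP3 (AT5G22470), and the glycohydrolase genes PARG1 (AT2G31870) and PARG2 (AT2G31865). All 5 are among the 19858 genes of the authors' deposited RNA-seq table. Older names overlap, since the RefSeq gene table also lists ATPARP2 as a synonym of AT2G31320, and PARP1 and ATPARP1 as synonyms of AT4G02390, so identifiers are given beside the names.

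The samples were whole seedlings of ecotype C24, 10 days old and untreated. Plants grew at 22°C with 23 h of light on MS medium with 20 g/L sucrose, and were either wild type (WT) or mutant in POLD2, the second subunit of DNA polymerase delta, a polymerase that copies the genome. The labels name the mutant only as pold2 and do not describe the allele. RNA came from 3 libraries per genotype, which the authors pooled to 1 FPKM value per genotype (fragments scaled by transcript length and by library size), and the chromatin values come from 1 WT library for each of H3K27me3, H3K4me3 and H3K9me2.

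Poly(ADP-ribose) polymerases bind broken DNA and use NAD+ to attach chains of ADP-ribose to themselves and to nearby proteins, which helps to recruit repair factors. Poly(ADP-ribose) glycohydrolases cut these chains and release ADP-ribose, so that the mark is short-lived. In Arabidopsis, PARP1 and PARP2 act in the response to DNA damage, PARP3 is known for its expression in seeds, PARG1 was found as the circadian clock mutant tej, and PARG2 is known as a gene induced by pathogens.

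The mutant's own gene was checked first. POLD2 (AT2G42120) stood at 7.21 FPKM in WT against 2.83 FPKM in pold2 by the authors' deposited table, 2.55-fold lower (q = 0.00103). A gene is called here where its q, the p-value adjusted over all genes of that table, is under 0.05. The table holds no value per library, so the levels below carry no SD, and its depth is unknown. The labels do not say whether libraries came from separate cultures, so q may measure technical spread only. In whole seedlings, a change in the make-up of cells and a change in RNA per cell cannot be told apart.

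All 3 polymerase genes were higher in pold2, and neither glycohydrolase gene was called. PARP2 showed the largest ratio of the 5, PARP3 the next largest from a far lower level, and PARP1 a modest one. These 3 of 5 genes called higher, with 0 lower, stand beside 5.97% of all genes called higher and 6.47% called lower (12.4% in either direction) in the authors' deposited table. PARP2 and PARP3 were also at least 2-fold higher, which held together with a call for 1.20% of all genes. The 5 genes were chosen with earlier results of these data known, so these comparisons with all genes are not independent evidence.

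PARP2 lies on chromosome 4 (1049957 to 1054065, TAIR10) and encodes the polymerase known in Arabidopsis for most of the poly(ADP-ribose) made after genotoxic stress. Its level was 10.0 FPKM in WT against 25.6 FPKM in pold2 by the authors' deposited table. This is a 2.54-fold rise (log2 ratio 1.35, q = 0.00103). Of the 1185 genes called higher in that table, only those with a finite ratio were ranked by it. PARP2 stood at place 131 among these ranked genes, and 88.9% of them had a smaller ratio. Its level moved from above 44.9% of all genes in WT to above 71.5% of them in pold2.

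PARP1, on chromosome 2 (13353821 to 13359728), encodes the large polymerase with zinc fingers that resembles human PARP1. Its level was 10.2 FPKM in WT against 13.6 FPKM in pold2 by the authors' deposited table, a 1.34-fold rise (log2 ratio 0.42, q = 0.00188). PARP1 was thus the called member with the smallest ratio, at place 855 among the genes called higher in that table with a finite ratio. In WT its level and that of PARP2 were nearly equal, with a PARP2 to PARP1 ratio of 0.988 by FPKM, which is a level per length. In pold2 the same ratio of levels was 1.88. Whether the rise of PARP2 differs from that of PARP1 was not tested, since no spread between libraries is given.

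PARP3, on chromosome 5 (7446974 to 7451049), was the least expressed of the 5 in WT. It stood at 0.554 FPKM in WT against 1.22 FPKM in pold2 by the authors' deposited table, 2.21-fold higher (log2 ratio 1.14, q = 0.00103). No gene of that table is below 0.501 FPKM in both genotypes, and PARP3 passed this minimum in both. In WT its level lay above that of 1.78% of the genes, and in pold2 above that of 6.65%. A low level makes its ratio depend on small numbers, and with 1 or 5 FPKM added to both values the log2 ratio was 0.52 or 0.16. With the same additions that of PARP2 was 1.27 or 1.02.

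PARG1 and PARG2 are neighbours on chromosome 2, with 324 bp between their loci. PARG1 (13549861 to 13553844) stood at 2.66 FPKM in WT against 2.79 FPKM in pold2 by the authors' deposited table (log2 ratio 0.07, q = 0.856). PARG2 (13546596 to 13549536) was at 0.905 FPKM in WT against 1.13 FPKM in pold2 in that table (log2 ratio 0.32, q = 0.411). Both values were a little higher in pold2, and neither passed the test, nor reached an unadjusted p under 0.05 in that table, which does not show that they stayed the same. The 2 genes are related copies, so reads could be split between them. A transcribed pseudogene, AT2G31860, is listed next to PARG2 in the RefSeq gene order and is not among the genes of the FPKM table.

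**Figure D1:**
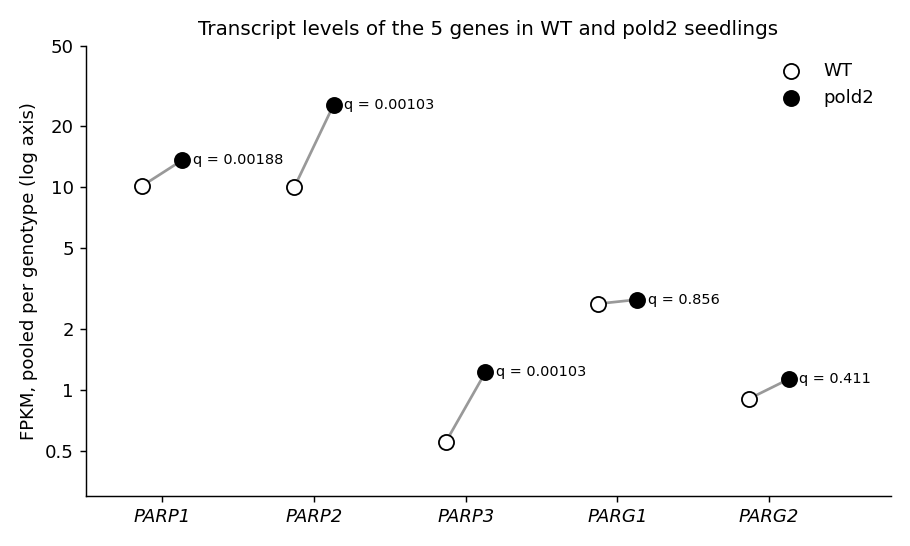
FPKM of the 5 genes on a log axis, with 1 pooled value per genotype (open circles WT, filled circles pold2) and the authors' q beside each pair. PARP1 and PARP2 start together near 10 FPKM in WT and separate in pold2, at 13.6 and 25.6 FPKM, while PARG1 (2.66 and 2.79 FPKM) and PARG2 (0.905 and 1.13 FPKM) have q values of 0.856 and 0.411.

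By their order in WT, PARP1 (10.2 FPKM) and PARP2 (10.0 FPKM) came first, followed by PARG1 (2.66 FPKM), PARG2 (0.905 FPKM) and PARP3 (0.554 FPKM) in the authors' deposited table. In pold2 the order was PARP2, PARP1, PARG1, PARP3 and PARG2, so that both PARP2 over PARP1 and PARP3 over PARG2 changed places. No spread is given, so close levels such as those of PARP1 and PARP2 in WT, or of PARP3 (1.22 FPKM) and PARG2 (1.13 FPKM) in pold2, cannot be put in a firm order.

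Summed by role, the 3 polymerase genes gave 20.8 FPKM in WT against 40.4 FPKM in pold2, a sum 1.94-fold higher. PARP2 supplied 79.1% of this difference, PARP1 17.5% and PARP3 3.42%. The 2 glycohydrolase genes summed to 3.57 FPKM in WT against 3.92 FPKM in pold2. The ratio of the polymerase sum to the glycohydrolase sum was 5.83 in WT and 10.3 in pold2. Within the polymerases, the share of PARP2 in the sum went from 48.4% in WT to 63.3% in pold2, that of PARP1 from 49.0% to 33.7%, and that of PARP3 from 2.67% to 3.03%. PARP3 thus remained a small part of the transcript sum although its ratio was 2.21-fold. These sums describe pooled values and have no test.

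**Figure D2:**
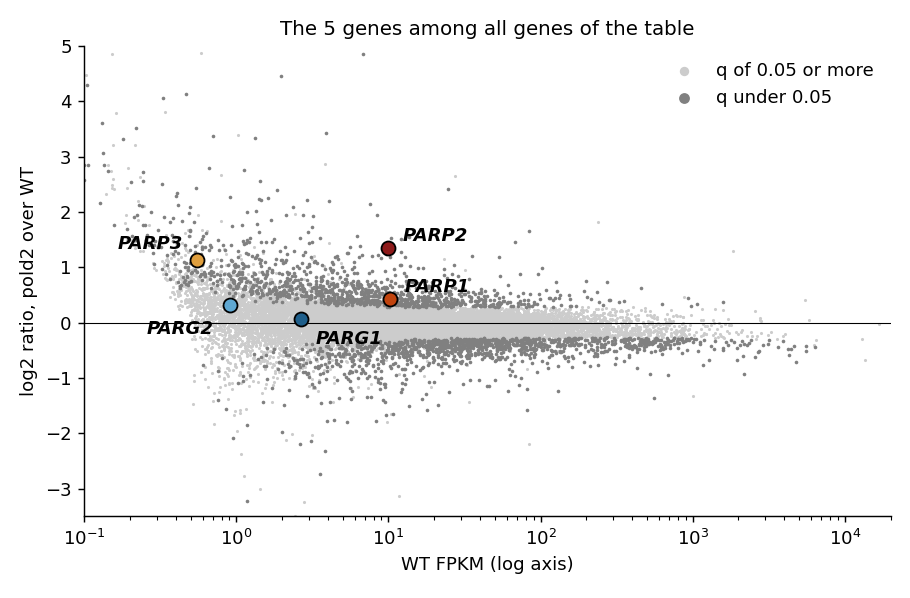
Log2 ratio of pold2 over WT against WT FPKM (log axis) for the genes of the table, with the 5 genes in colour and genes with q under 0.05 in dark grey (29 genes lie outside the axes). At a WT level near 10 FPKM, PARP2 lies above the dense band of genes around 0 and PARP1 at its upper edge, while PARG1 and PARG2 lie inside it.

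Calls were also counted among genes of like level. Among the 7409 genes of 5 to 20 FPKM in WT, the band that holds PARP1 and PARP2, 5.17% were called higher in the authors' deposited table. Among the 2327 genes of 0.5 to 2 FPKM in WT, the band of PARP3 and PARG2, it was 10.8%. Over all genes, 1.00% had a larger log2 ratio than PARP2, 1.36% a larger one than PARP3 and 7.37% a larger one than PARP1 in the authors' deposited table. The corresponding shares were 10.7% for PARG2 and 35.9% for PARG1.

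The genes with the most similar pair of levels were found by the distance between log2 FPKM values, which rests on only 2 pooled values and so says little beyond level and ratio. For PARP2 they were the beta-glucosidase gene BGLU19 (AT3G21370, 9.96 FPKM in WT against 25.7 FPKM in pold2 by the authors' deposited table), AT3G45730 and AT3G28540. For PARP1 they were AT3G47540, CYP78A5 (AT1G13710) and AT5G35735. For PARP3 they were AT5G39220, CYP76C6 (AT1G33720) and AT4G21903. All of these were also called higher in the authors' deposited table.

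Genes around the pathway were then compared, from 6 lists with 63 entries. They cover proteins related to PARPs, the supply of NAD+, the use of NAD+ and of ADP-ribose, the repair routes in which PARPs take part, and the response to DNA damage. Over all 19858 genes the median log2 ratio was -0.01, against which the medians below can be read. Of these lists, that of damage response genes had most of its members called, and the others had 0 or 1.

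The SRO proteins carry a PARP-like domain and include RCD1, a regulator of stress responses. Of 6 SRO genes 5 were listed, and none was called in the authors' deposited table, with 1 at an unadjusted p under 0.05 and a median log2 ratio of 0.17. Over all genes 12.4% were called in either direction and 24.0% had such a p, so the lack of a call among 5 genes says little. RCD1 (AT1G32230), the most expressed, stood at 78.5 FPKM in WT against 91.2 FPKM in pold2 by the authors' deposited table (q = 0.145). SRO1 (AT2G35510) was at 17.6 FPKM in WT against 19.8 FPKM in pold2 in that table (q = 0.322). SRO3 (AT1G70440), named after its value was seen, had a log2 ratio of 1.20 from 0.351 FPKM in WT in the authors' deposited table, without being called (q = 0.306). No gene there is below 0.501 FPKM in both genotypes, and SRO3 is below this minimum in WT. It is thus listed only through its pold2 level, so a higher value in pold2 was fixed in advance. Among members with a mean of at least 1 FPKM, which leaves SRO3 out, the median was also 0.17.

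PARPs consume NAD+, and the 10 genes of its synthesis and salvage were all listed. One was called higher, with 0 lower, by the authors' deposited table, beside 5.97% of all genes called higher, and the median log2 ratio was 0.05. The called gene was AO (AT5G14760), L-aspartate oxidase, the first enzyme of NAD+ synthesis in plants. It went from 15.5 to 20.1 FPKM by the authors' deposited table (a ratio of 1.30-fold, q = 0.00404).

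The next list held 2 sirtuin genes, whose proteins consume NAD+, and 4 Nudix hydrolase genes, whose proteins split ADP-ribose or related nucleotides. None of the 6 was called in the authors' deposited table, with 0 at an unadjusted p under 0.05 and a median log2 ratio of 0.07. These counts stand beside 12.4% of all genes called in either direction and 24.0% with such a p, and say little for 6 genes. NUDX7 (AT4G12720) stood at 19.2 FPKM in WT against 19.6 FPKM in pold2, and SRT2 (AT5G09230) was at 11.3 against 10.9 FPKM by the authors' deposited table.

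Base excision and single-strand break repair uses PARPs as sensors of nicks. Of 14 genes 1 (7.14%) was called higher, with 0 lower, by the authors' deposited table, which is near the 5.97% of all genes called higher, and the median log2 ratio was 0.02. The called gene was ROS1 (AT2G36490), a DNA glycosylase that removes methylated cytosine, at 15.6 FPKM in WT against 18.9 FPKM in pold2 by the authors' deposited table (1.21-fold, q = 0.0458). XRCC1 (AT1G80420), known from animals as the scaffold protein of this repair, is named after its value was seen: it had the lowest log2 ratio of the list, -0.25, and was not called in the authors' deposited table (q = 0.136). At q under 0.01 the list held 0 called genes.

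End joining, the repair of double-strand breaks without a template, has a route that uses KU proteins and another in which PARPs take part. None of the 9 was called in the authors' deposited table, with 0 at an unadjusted p under 0.05 and a median log2 ratio of 0.05. With 12.4% of all genes called in either direction and 24.0% at such a p, counts of 0 among 9 genes say little. KU80 (AT1G48050) stood at 16.6 FPKM in WT against 17.2 FPKM in pold2 by the authors' deposited table. RAD50 (AT2G31970), part of the complex that trims DNA ends, was at 12.3 FPKM in WT against 14.1 FPKM in pold2 in that table (q = 0.220).

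Of 18 damage response genes 12 (66.7%) were called higher, with 0 lower, by the authors' deposited table, beside 5.97% of all genes called higher and 6.47% lower. The median log2 ratio of the list was 1.25. The largest ratio among the called genes was that of the kinase inhibitor gene SMR7 (AT3G27630), 5.31-fold, followed by GMI1 (AT5G24280, 4.67-fold), the recombination gene BRCA1 (AT4G21070, 3.84-fold), NAC044 (AT3G01600, 3.32-fold), which encodes a transcription factor, and TK1A (AT3G07800, 2.84-fold), which encodes a thymidine kinase, by the authors' deposited table. Of the 12 called genes, 6 had a larger log2 ratio than PARP2, and all 12 a larger one than PARP1. PARP2 thus lay in the middle of this list and PARP1 below its called genes. The largest ratio of the whole list was that of SMR5 (AT1G07500), 3.80 FPKM in WT against 27.6 FPKM in pold2 by the authors' deposited table, without a call (q = 0.538). NAC085 (AT5G14490) had a log2 ratio of 2.41 from 0.156 FPKM in WT in that table and was not called either (q = 0.114). SMR5 and NAC085 are named after their values were seen. NAC085 is below the minimum of 0.501 FPKM in WT and is listed only through its pold2 level, so its direction was fixed in advance. Among members with a mean of at least 1 FPKM, which leaves NAC085 out, the median log2 ratio was 1.23.

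The genes at the head of this response, named after their values were seen, were not called. SOG1 (AT1G25580), the transcription factor of the plant damage response, stood at 10.7 FPKM in WT against 10.1 FPKM in pold2 by the authors' deposited table (q = 0.737). The kinase genes that activate it, ATM (AT3G48190, q = 0.961) and ATR (AT5G40820, q = 0.988), had log2 ratios of -0.02 and 0.01 in that table. The list was written with earlier results of these data known, so its direction is not independent evidence.

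**Figure D3:**
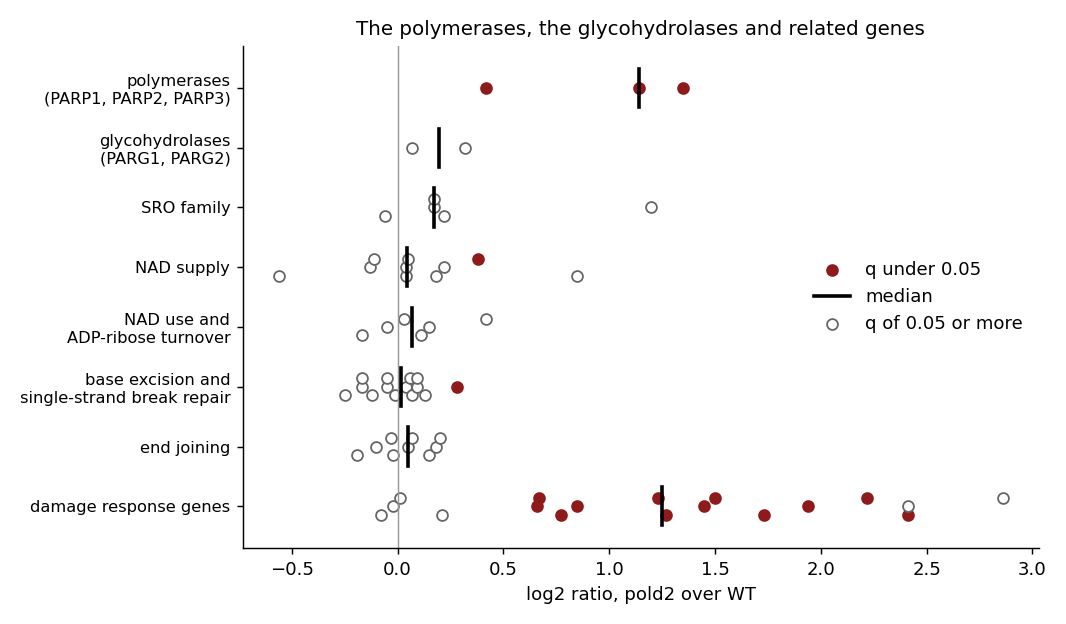
Log2 ratio of pold2 over WT for each polymerase and glycohydrolase gene and for each listed gene of the 6 lists, 1 point per gene, filled where q is under 0.05, with the median of each row as a bar. The 3 polymerase genes and 12 of 18 damage response genes are filled, and the medians of the NAD+ and repair lists lie close to 0 (0.02 to 0.07), with AO and ROS1 the filled points among them and single genes such as NIC2 (0.85) and NMNAT (-0.56) further out and open (both named after their values were seen).

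The chromatin of the 5 loci was described in WT, from the authors' peak lists. H3K4me3 marks the starts of active genes, H3K27me3 is set by Polycomb on silent or weakly expressed genes, and H3K9me2 marks silent transposons. A locus was taken as marked where a peak overlapped it by 1 bp or more, and for H3K4me3 the locus was first widened by 500 bp at each end. Scores are the authors' own and rank peaks only within a list. By this rule 3 of the 5 loci carried H3K4me3, beside 86.4% of all listed genes, 2 carried H3K27me3, beside 15.3%, and 0 carried H3K9me2, beside 0.680%. By the same rule the 5 loci fell into 4 states: H3K4me3 alone (PARP2 and PARG1), H3K4me3 with H3K27me3 (PARP1), H3K27me3 alone (PARP3) and no peak (PARG2).

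PARP2 carried H3K4me3 at both ends and no H3K27me3. The peak at its low-coordinate end (chromosome 4, 1049711 to 1050894) had 79.2% of its length in the locus and a score of 766, above 26.7% of the 15782 H3K4me3 peaks. The peak at the other end (1053862 to 1055141, score 1386) had 204 bp in PARP2 and ran on into the locus shared by AT4G02400 and AT4G02405, which lies 133 bp away. The files give no strand, so neither end was taken as the start of the gene. The nearest H3K27me3 peak lay 16284 bp from the locus.

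PARP1 carried both marks, at opposite ends of the locus. Its H3K4me3 peak (chromosome 2, 13358914 to 13360040, score 658) covered the high-coordinate end, and an H3K27me3 peak (13353899 to 13355686) began 78 bp inside the low-coordinate end and covered 30.3% of the locus. The peaks were 3227 bp apart. With a score of 54.0, the H3K27me3 peak ranked at place 7039 of 7271, near the bottom of the list. Both marks occurred at 7.65% of all genes and at 6.96% of genes of 5 to 20 FPKM in WT.

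PARP3 was the only one of the 5 under H3K27me3 without H3K4me3. Its 2 H3K27me3 peaks (chromosome 5, 7446465 to 7448718, score 116, and 7448930 to 7450889, score 53.3) were separated by 211 bp and together covered 90.9% of the locus. Such a state, H3K27me3 without H3K4me3, was found at 7.62% of all genes and at 22.7% of genes of 0.5 to 2 FPKM in WT. The nearest H3K4me3 peak lay 3279 bp from the locus. Both H3K27me3 peaks scored below the list's median of 228. The second, at place 7067 of 7271, was near the bottom of the list. It covered 48.1% of the locus, and the first covered 42.8%.

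PARG1 carried an H3K4me3 peak (chromosome 2, 13552930 to 13554175, score 1068) over its high-coordinate end, with 915 bp inside the locus. PARG2 lay under no peak of the 3 marks, and its nearest H3K4me3 peak, that of PARG1, was 3394 bp away. No mark was found at 5.83% of all genes and at 17.4% of genes of 0.5 to 2 FPKM in WT. The 4 H3K4me3 peaks at PARP1, PARP2 and PARG1 all scored below the median of that list, 1514. The nearest H3K9me2 peak was between 27583 bp (PARP3) and 62057 bp (PARP1) from the 5 loci.

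**Figure D4:**
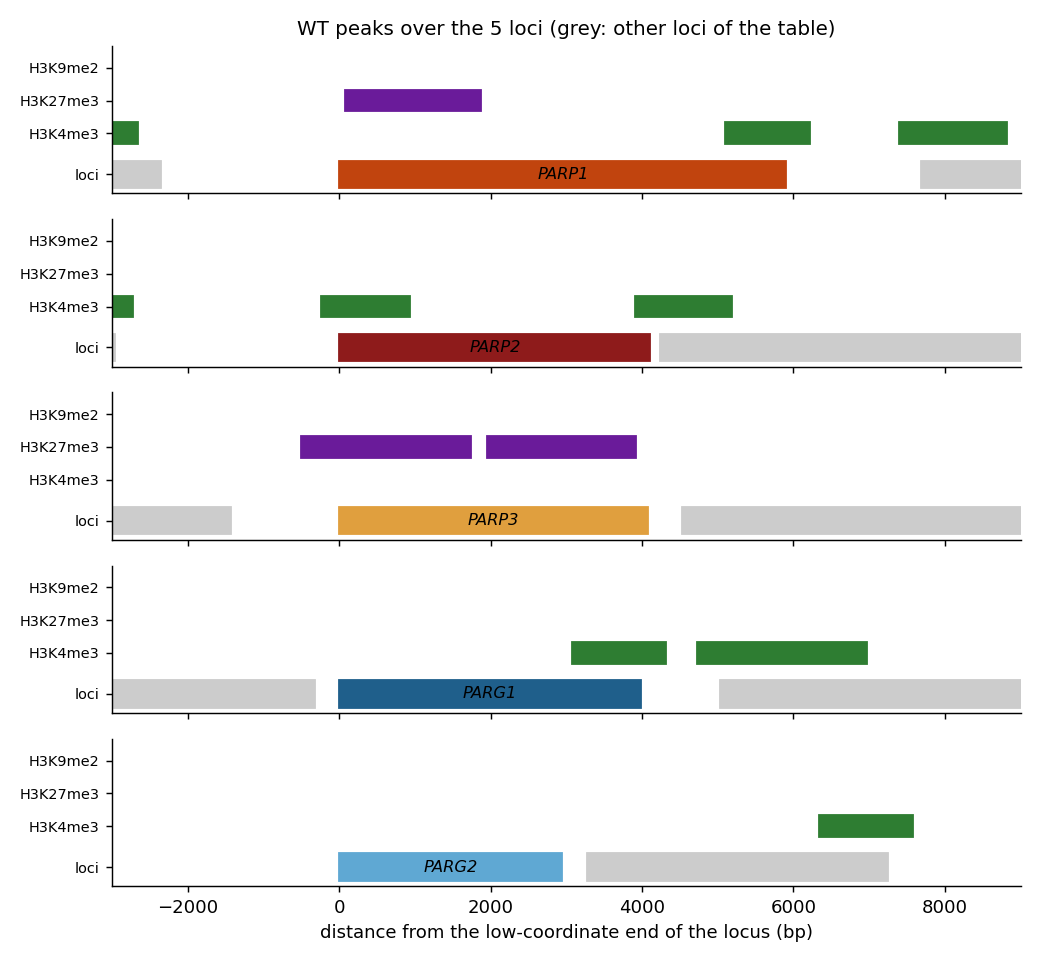
WT peaks of H3K4me3 (green), H3K27me3 (purple) and H3K9me2 (none in view) over the 5 loci, by distance in bp from the low-coordinate end of each locus, with other loci of the table in grey. PARP3 is covered for 90.9% of its length by 2 H3K27me3 peaks, PARP1 carries an H3K4me3 and an H3K27me3 peak at opposite ends, and no peak touches PARG2. The H3K27me3 peak of PARP1 and 1 of those of PARP3 score near the bottom of their list.

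By the 1 bp rule the 3 called members had 3 different WT states, H3K4me3 alone (PARP2), both marks (PARP1) and H3K27me3 alone (PARP3). These states depend on weak peaks and on 1 library per mark. The H3K27me3 peak of PARP1 stood at place 7039 of 7271, and without it PARP1 would share the state of PARP2. Among the better-scoring peaks of each list, 0 members carried H3K27me3 and 0 carried H3K4me3, as given below. The pold2 chromatin libraries were not analysed here, so no change of a mark is reported.

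The genes next to the members were compared to see whether the ratios extended beyond the loci. Of the 10 immediate neighbours, 0 were called and 3 had an unadjusted p under 0.05 in the authors' deposited table. Over all genes 12.4% were called and 24.0% had such a p, so these counts are near the background. Beside PARP2, SAG21 (AT4G02380) had a log2 ratio of -0.11, and AT4G02400 and AT4G02405 had 0.23 and -0.01, in that table. INH3 (AT2G31305) and emb1381 (AT2G31340), on either side of PARP1, had log2 ratios of -0.13 and -0.15 in the authors' deposited table. PARP3 lies between AT5G22460 (log2 ratio 0.32) and AT5G22480 (-0.12) in that table. Beyond the PARG pair, MRL7-L (AT2G31840) had a log2 ratio of -0.11, SOBIR1 (AT2G31880) 0.37 and RAP (AT2G31890) -0.25 in the authors' deposited table.

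Over the 10 genes on each side, 1 of 20 was called higher and 1 lower around PARP1, against 0 and 1 around each of PARP2 and PARP3, by the authors' deposited table. Around PARG1 they were 1 and 1, and around PARG2 2 and 1. The PARG1 and PARG2 sets share most of their genes, and each holds the other PARG gene, so they are not separate surroundings. The median log2 ratio of the 20 neighbours was between -0.04 (PARP1) and 0.09 (PARG1). Over all genes 5.97% were called higher and 6.47% lower, and with 20 neighbours these counts set nothing apart from that background. AT5G22430, which lies 12038 bp from PARP3 and was named after its value was seen, had the largest log2 ratio among these neighbours, 2.79 from 0.195 FPKM in WT, and was not called in the authors' deposited table (q = 0.0908). It is below the minimum of 0.501 FPKM in WT and is listed only through its pold2 level, so its direction was fixed in advance.

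**Figure D5:**
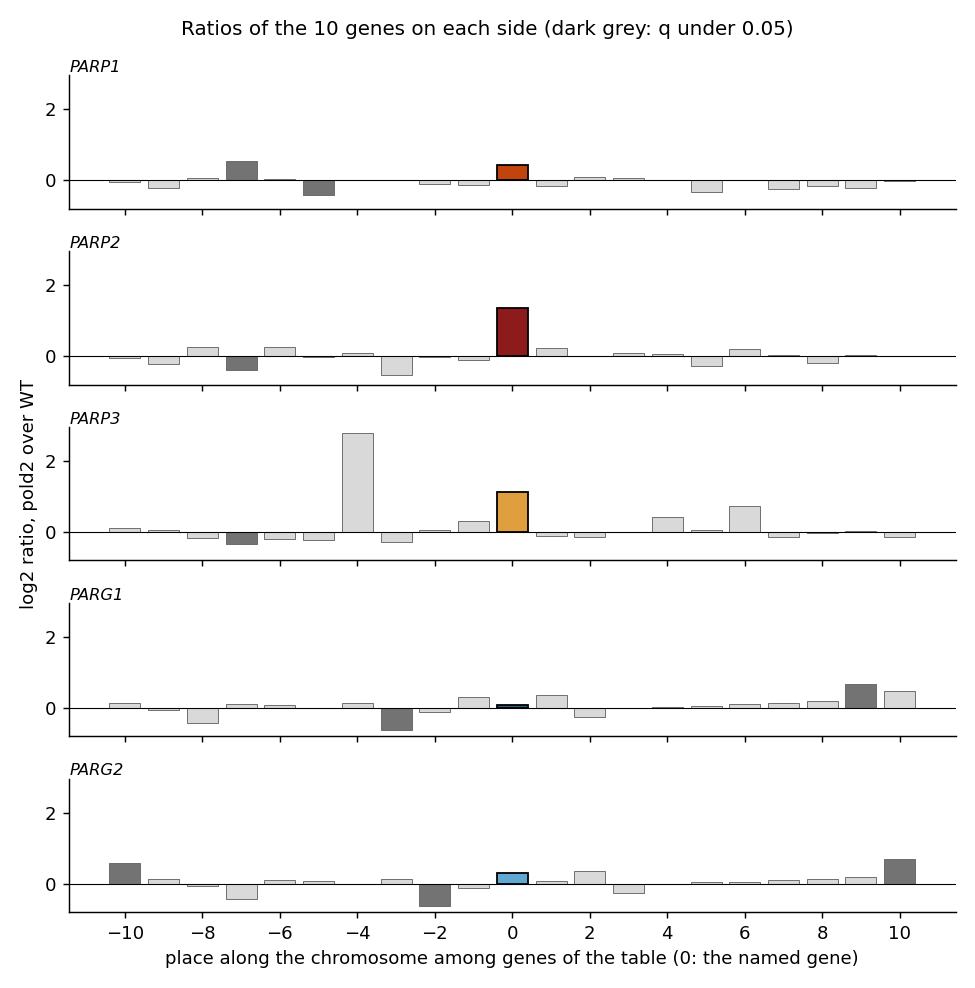
Log2 ratio of pold2 over WT for each of the 5 genes (coloured bar at 0) and for the 10 listed genes on each side along the chromosome, dark grey where q is under 0.05. PARP2 (1.35) exceeds all 20 neighbours shown. The 2.79 bar beside PARP3 is AT5G22430, with q = 0.0908, a gene listed only through its pold2 level.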

How the data were processed

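The authors deposited FPKM values pooled to 1 per genotype, with their log2 ratio of pold2 over WT, p-value and q-value, per the file headers. Peak lists were deposited with 1 score per peak. Their peak names start with MACS, and the version and control of the caller are not stated in what was used here. The submitters' processing notes name Bowtie 0.12.9, TopHat2 2.1.1, Cuffdiff 2.1.1, Bowtie2 2.0.5 and Bismark 0.7.4 without roles, and TAIR10 as the build.

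A Benjamini-Hochberg adjustment of their p over 19858 genes gave their q to within 5.28e-07. As many as 965 genes share the smallest p of 5e-05. With no value per library, no fit across libraries was made. Fold changes, sums, overlaps and medians were computed with Python 3.11.15 and pandas 2.3.3, and the adjustment, overlap and scaling steps were tested on simulated data. Loci and peaks, which the files count from 0, are given from 1. Names came from a RefSeq gene table (TAIR10.1), of which no coordinate was used and which matched 19771 identifiers.

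Members and lists were chosen with earlier results of these data known. Named genes were the members, POLD2, the called genes of each list (the 5 of smallest q, ties by size of change, where more were called, or the 2 with the highest mean FPKM where none was), immediate neighbours, and the 3 genes nearest each called member in log2 FPKM. Genes outside this rule are marked in the text as named after their values were seen. The bands of WT level were added after the data were seen. Promoter and protein sequences and the other 9 libraries were not analysed here.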

Additional observations from a re-analysis of the deposited data

How the results depend on the processing

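The calls were recomputed with a stricter q (0.01), a 2-fold minimum, and q readjusted over genes with a mean of at least 1 or 5 FPKM. Log2 ratios of the members were recomputed with pseudocounts of 0.1, 1 and 5. Those of members and lists were also recomputed with median-ratio scaling, which shifted log2 ratios by 0.006 in size. No call was remade with the pseudocounts or the scaling. The number of members called higher was 3, and 2 with the 2-fold minimum, which drops PARP1, or with either readjustment, which leaves out PARP3. Of 90 recomputed values 81 kept their direction, and any count among them stayed within 1.5 times the reported one. Of the others, 3 medians reversed sign and 6 values moved in size only. Some calls were lost among the 81, since the damage response calls went from 12 to 11 at q under 0.01 and to 10 at 5 FPKM. Part of the 81 could not have come out otherwise, since a pseudocount cannot change the sign of a log2 ratio. A list count of 0 likewise cannot rise at a stricter q or among fewer members. No paired analysis was possible because the table gives 1 pooled value per genotype, and leaving out a library could not be done for the same reason.

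The median log2 ratio of base excision and single-strand break repair was -0.01 at both 1 and 5 FPKM, and that of NAD use and ADP-ribose turnover was -0.01 at 5 FPKM. The damage response median was 1.36 at 5 FPKM. At q under 0.01 base excision and single-strand break repair held 0 called genes. In the better-scoring 50% of each peak list, 0 members carried H3K27me3 and 0 carried H3K4me3. With 50% of the locus covered, 1 member (PARP3, only by its 2 peaks together) carried H3K27me3 and 0 carried H3K4me3. The H3K4me3 count was largely set by width. The median H3K4me3 peak is 1334 bp wide, and the member loci span 2941 bp (PARG2) to 5908 bp (PARP1). A single peak of that width could not cover 50% of any of them. Unknown depth limits the reading of PARP3 and PARG2, which were near 1 FPKM.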
